A study of Arabidopsis thaliana with 6 samples.

Results

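The genes described here are the bHLH (basic helix-loop-helix) genes TT8 (AT4G09820), GL3 (AT5G41315), EGL3 (AT1G63650) and MYC1 (AT4G00480) and the WD40 repeat genes TTG1 (AT5G24520), LWD1 (AT1G12910) and LWD2 (AT3G26640) of Arabidopsis thaliana, whose proteins are partners, or relatives of partners, of MYB transcription factors. They were chosen by locus identifier, and every array feature of these 7 loci was taken, which gave 10 of the 37118 features and 7 of the 32627 loci on the array. TT8, GL3, EGL3, LWD1 and LWD2 had 1 feature each, MYC1 had 2 and TTG1 had 3. Whole-plant RNA was compared between 3 lines that carried 35S::VvMYBPAR (PAR18-2, PAR9-2 and PAR36-4, called the MYBPAR lines) and 3 lines transformed with an empty vector (Cont1-1, Cont2-3 and Cont5-1). VvMYBPAR is a MYB factor of grapevine, which is driven here by a viral promoter, 35S, that is active throughout most of the plant. All 6 lines were of ecotype Columbia, were 3 weeks old and had been kept on agar with 30 mg/l kanamycin at 22 °C with 16 h of light, so the controls carried a vector and met the same selection. For every line 1 RNA sample was hybridised to 1 array in a single colour, and the samples of each group came from separate cultures by their labels. Differences between lines, cultures and arrays therefore cannot be told apart. All features are identified by Arabidopsis loci, so the level of the grapevine transcript itself was not read.

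Anthocyanin and proanthocyanidin genes, trichomes, root hair pattern and seed coat mucilage are all controlled in Arabidopsis by complexes of an R2R3 MYB, a bHLH protein and the WD40 protein TTG1, known as MBW complexes. The MYB brings most of the target specificity, the bHLH protein binds both the MYB and TTG1, and TTG1 is shared by the complexes. In the seed coat TT2, TT8 and TTG1 activate BAN, the gene of anthocyanidin reductase, and TT8 is itself a target of MBW complexes. GL3 and EGL3 act with GL1 in trichomes and with WER in the root epidermis. LWD1 and LWD2 are close relatives of TTG1 that are best known as components of the circadian clock, where they keep morning genes active.

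All values below are log2 of the deposited RMA intensity, so a difference of 1 is a doubling. A feature was called when its Benjamini-Hochberg adjusted p over all features was under 0.05 in limma. None of the 10 features was called, against 0.00539% of all features. An unmoderated linear model called 0 of all features, so it could not call any of the 10. At an unadjusted p under 0.05 limma gave 2 of the 10, TT8 and the second MYC1 feature, where 4.32% of all features lay. The median difference was 0.09 over the 10 features, with 6 above 0, and 0.02 over all features, of which 53.7% were above 0. In these whole-plant samples a change in the number of cells that express a gene and a change in RNA per cell cannot be told apart.

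**Figure D1:**
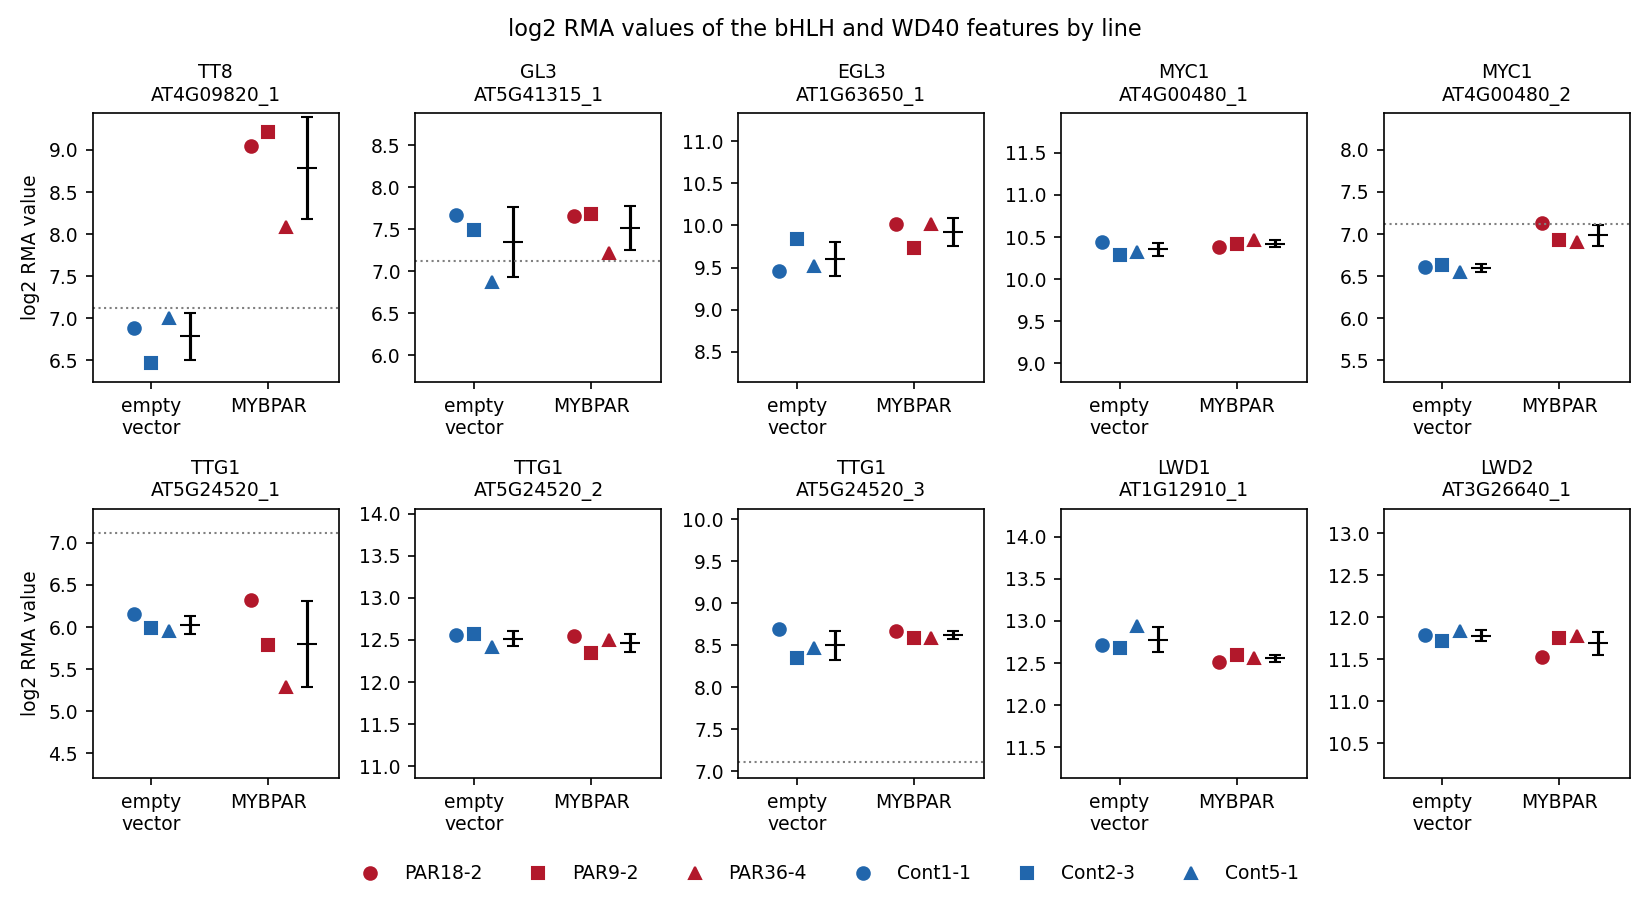
Log2 RMA values of the 10 features in each line, with empty vector lines in blue, MYBPAR lines in red, and the mean and SD of 3 lines in black beside them; each panel spans the same range of log2 units around its own centre. The dotted line is the density minimum that parts the low mode of all features from the high one, and only TT8 shows a gap between the groups that is wide on this scale.

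TT8 (AT4G09820) encodes the bHLH protein that pairs with TT2 and TTG1 at tannin genes and with the PAP-type MYB proteins at anthocyanin genes. Its log2 value was 9.05 in PAR18-2, 9.21 in PAR9-2 and 8.09 in PAR36-4. The controls had 6.88 in Cont1-1, 6.47 in Cont2-3 and 7.003 in Cont5-1. All 3 MYBPAR lines were thus above all 3 controls, and PAR36-4 was the lowest of the MYBPAR lines by more than 0.9 log2 units. In 6.32% of all features the MYBPAR lines lay entirely above the controls.

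The group means of TT8 were 8.78 ± 0.61 (SD, n = 3) and 6.78 ± 0.28 (SD, n = 3), a log2 difference of 2.00 (SE 0.32, 95% interval 1.22 to 2.77). It had rank 14 by p among 37118 features. TT8 did not pass across all features (limma, unadjusted p = 6.47e-04, adjusted p = 0.915). A log2 difference of at least 1 upward was seen in 239 features, 0.644% of all. On the linear scale the MYBPAR lines had 530, 592 and 272 intensity units, and the controls had 118, 88.7 and 128.

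Features of all genes fell into a dim and a bright population by their mean log2 value, parted by a minimum of the density at 7.12, and the 3 control values of TT8 were below it, in the low mode. Signal in the low mode may be background, and no detection call was used here. With the controls raised to that minimum the group means of TT8 differed 3.18-fold, a value that leaves out the spread between lines. Leaving out PAR36-4 gave 2.34 in place of 2.00 (SE 0.20; limma, adjusted p = 0.373), and over all fits that left out 1 line the adjusted p ran from 0.341 to 1.

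GL3 (AT5G41315), the main bHLH partner of GL1 in trichome initiation, had 7.65, 7.68 and 7.21 in PAR18-2, PAR9-2 and PAR36-4 against 7.67, 7.49 and 6.88 in Cont1-1, Cont2-3 and Cont5-1. The groups overlapped, with Cont5-1 the lowest array and the only one below the minimum between the modes. The log2 difference was 0.17 (SE 0.24, 95% interval -0.42 to 0.76; limma, adjusted p = 0.925), and without Cont5-1 it was -0.063.

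EGL3 (AT1G63650), which acts redundantly with GL3 in the epidermis and also with MYB factors in anthocyanin synthesis, had 10.01, 9.73 and 10.02 in the MYBPAR lines in the same order. The controls had 9.46, 9.83 and 9.52. Cont2-3 lay above PAR9-2, so the groups overlapped, and the other 2 MYBPAR lines were above all controls. The log2 difference was 0.32 (SE 0.15, 95% interval -0.05 to 0.68; limma, adjusted p = 0.915).

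MYC1 (AT4G00480), a further bHLH gene of this group with a role in epidermal cell fate, was read by 2 features that gave different pictures. Feature AT4G00480_1 had 10.38, 10.42 and 10.46 in the MYBPAR lines and 10.44, 10.29 and 10.32 in the controls. These 6 values span 0.17 log2 units and the groups overlapped, with a difference of 0.07 (SE 0.10, 95% interval -0.17 to 0.31; limma, adjusted p = 0.925). Feature AT4G00480_2 had 7.13, 6.92 and 6.90 against 6.61, 6.64 and 6.55. Here all MYBPAR lines were above all controls, but 5 of the 6 values lay below the minimum between the modes. Its difference was 0.39 (SE 0.11, 95% interval 0.12 to 0.65; limma, unadjusted p = 0.0110, adjusted p = 0.915). Which transcripts the 2 features read is not stated in the files or labels used here. The mean of both features differed by 0.23 (SE 0.10).

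TTG1 (AT5G24520), the WD40 protein common to the MBW complexes, was read by 3 features of 3 probes each. AT5G24520_2, the brightest, had 12.55, 12.34 and 12.50 in the MYBPAR lines and 12.55, 12.57 and 12.41 in the controls. The groups overlapped within a span of 0.23 log2 units, and the difference was -0.05 (SE 0.11; limma, adjusted p = 0.955). Its 95% interval of -0.32 to 0.22 corresponds to a ratio of MYBPAR to empty vector between 0.802 and 1.16.

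The other TTG1 features also overlapped between the groups. AT5G24520_3 had 8.67, 8.59 and 8.59 against 8.69, 8.35 and 8.47, a difference of 0.12 (SE 0.12; limma, adjusted p = 0.919) that was 0.039 without Cont2-3 and 0.21 without Cont1-1. AT5G24520_1 had 6.32, 5.79 and 5.29 against 6.15, 5.99 and 5.95, all in the low mode, with a difference of -0.23 (SE 0.26; limma, adjusted p = 0.920). The 3 features therefore did not share a direction, and the size of each difference was below its SE.

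LWD1 (AT1G12910), listed in RefSeq as ATAN11 after its petunia relative AN11, had 12.52, 12.60 and 12.56 in the MYBPAR lines. The controls had 12.71, 12.68 and 12.94. All 3 MYBPAR lines lay below all 3 controls, as in 3.67% of all features, and Cont5-1 stood above the other controls. The log2 difference was -0.22 (SE 0.11, 95% interval -0.49 to 0.06; limma, unadjusted p = 0.0991, adjusted p = 0.915). Without Cont5-1 it was -0.14 (SE 0.11).

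LWD2 (AT3G26640), the nearest relative of LWD1, had 11.53, 11.75 and 11.78 against 11.78, 11.71 and 11.84. The groups overlapped and PAR18-2 was the lowest array. The difference was -0.09 (SE 0.11, 95% interval -0.37 to 0.18; limma, adjusted p = 0.921), and without PAR18-2 it was -0.013.

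**Figure D2:**
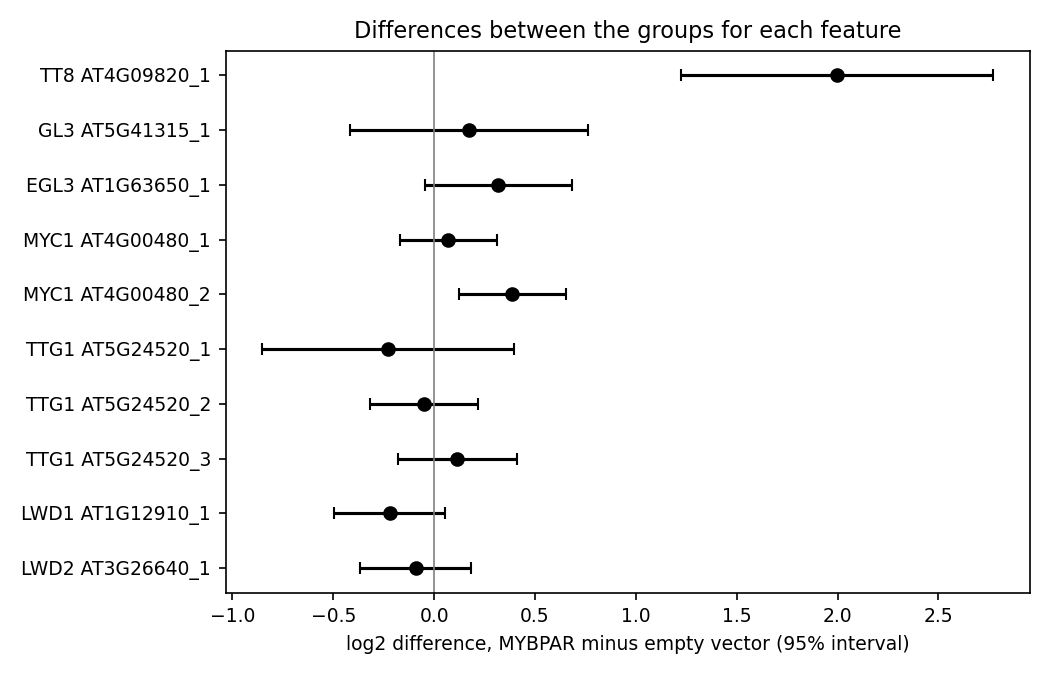
Log2 difference, MYBPAR minus empty vector, of each of the 10 features with its 95% interval from limma (not adjusted for the number of features). The interval lies above 0 for TT8 (1.22 to 2.77) and for the second MYC1 feature (0.12 to 0.65) and includes 0 for the other 8.

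Whether TT8 differed from the related bHLH genes in its change was tested within each array, with loci of several features read by the brightest. The members compared were themselves chosen with earlier results of these data known. TT8 minus the mean of GL3, EGL3 and MYC1 was -0.30, -0.07 and -1.14 in PAR18-2, PAR9-2 and PAR36-4. In Cont1-1, Cont2-3 and Cont5-1 it was -2.31, -2.73 and -1.90. The groups did not overlap, and the gap between their means was 1.81 log2 units (exact permutation test, two-sided, p = 0.1, adjusted p = 0.1 over 2 comparisons). The mean of the 4 bHLH genes minus the mean of the 3 WD40 genes differed by 0.76 in the same direction, again without overlap (exact permutation test, two-sided, p = 0.1, adjusted p = 0.1). TT8 carried most of this, since without it, an alternative chosen after seeing the data, the gap was 0.31 (exact permutation test, p = 0.1). With 3 against 3 lines 0.1 is the smallest p that this test can give, so neither comparison could reach 0.05. Values of different features are not compared as levels here, only in their change between groups.

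The bHLH genes MYC2, MYC3 and MYC4, which act in jasmonate responses, and the related repressors JAM1, JAM2 and JAM3 belong to neighbouring subgroups of the bHLH family. None of these 6 was called, 3 lay above 0 and 3 below, and the median was 0.02. MYC2 had the difference farthest from 0, -0.51 (SE 0.31), with PAR36-4 at 12.71 and the other 5 arrays between 13.44 and 14.05. JAM1 had -0.27 (SE 0.25), and PAR36-4 was again the lowest array, at 11.53.

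The MYB partners of the complexes were TT2, PAP1, PAP2, MYB113, MYB114, GL1, WER, MYB23 and MYB5. None of the 9 was called, 5 lay above 0 and the median was 0.11. MYB5, which works with TT2 in the seed coat and with TTG1 in trichomes and mucilage, had 8.50, 8.11 and 8.08 in the MYBPAR lines against 7.46, 7.58 and 7.73 in the controls. The groups did not overlap, with a difference of 0.64 (SE 0.15; limma, adjusted p = 0.915). PAP2, an anthocyanin regulator, had 0.53 (SE 0.29) with all 6 values in the low mode. TT2, the seed coat partner of TT8, lay in the low mode on all arrays, between 4.98 and 5.47.

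The small MYB proteins CPC, TRY, ETC1, ETC2, CPL3 and TCL1 and the repressor MYBL2 compete with the activating MYB proteins for the bHLH partner. None of these 7 was called, 5 lay above 0 and the median was 0.12. TCL1, a repressor of trichomes, had 0.50 (SE 0.17; limma, unadjusted p = 0.0258), and its MYBPAR lines, at 9.16, 9.11 and 9.43, were above the controls at 8.49, 9.02 and 8.70. MYBL2 had -0.51 (SE 0.42), with PAR9-2 at 11.90 and the other 5 arrays between 13.34 and 13.50.

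Among 9 late flavonoid genes that depend on MBW complexes 1 was called, all 9 lay above 0 and the median was 0.40. The called gene was BAN, with a fitted difference of 6.21 (SE 0.33; limma, adjusted p = 0.0283). Its controls were all in the low mode, and with them raised to the minimum, as for TT8, the group means of BAN differed 13.9-fold. The BAN call held without PAR18-2 and was lost without any 1 of the other 5 lines (limma, adjusted p from 0.0562 to 0.545), as it was with the replicate block, with no moderation and with either covariate. AHA10, the proton pump gene of tannin storage, had 1.42 (SE 0.10; limma, adjusted p = 0.0794). The other 7 genes, DFR, LDOX, TT12, TT19, UF3GT, UGT75C1 and 5MAT, overlapped between the groups and had differences between 0.06 and 0.52. The largest of these was that of TT12, whose 6 values were all in the low mode. BAN was higher in PAR18-2 (11.69) than in PAR9-2 (10.63) and PAR36-4 (10.43), whereas TT8 was highest in PAR9-2.

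Of 5 epidermal genes downstream of the GL3, EGL3 and TTG1 complexes none was called, all were above 0 and the median was 0.28. The differences of RHD6, 0.02 (SE 0.14), and MUM4, 0.10 (SE 0.12), were smaller than their SE. TTG2, a WRKY factor of trichomes and seed coat, had 10.13, 10.06 and 9.77 in the MYBPAR lines and 9.60, 9.44 and 9.42 in the controls. These groups did not overlap, with a difference of 0.50 (SE 0.13; limma, unadjusted p = 0.00894, adjusted p = 0.915). GL2, a homeodomain factor of trichomes and root hairless cells, had 0.33 (SE 0.15), and its groups overlapped.

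JAZ proteins, the repressors of jasmonate signalling, bind TT8, GL3 and EGL3 as well as MYC factors. None of the 12 JAZ genes was called, 11 lay below 0 and the median was -0.49. JAZ3 had -0.58 (SE 0.23; limma, unadjusted p = 0.0423) without overlap of the groups. JAZ7 and JAZ5 had -1.99 (SE 1.05) and -1.27 (SE 0.54), and in both PAR18-2 lay among the controls while PAR36-4 was the lowest array, at 5.04 and 9.11.

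Regulators linked to the bHLH and WD40 members or to their MYB partners were LBD37, LBD38, LBD39, SPL9, TCP3, UPL3 and GEM. They included no called gene, with 2 of 7 above 0 and a median of -0.07. SPL9, which restrains anthocyanin synthesis, had 0.53 (SE 0.22) and TCP3, which binds MYB proteins of the flavonoid pathway, had 0.46 (SE 0.27). In both genes the groups overlapped.

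**Figure D3:**
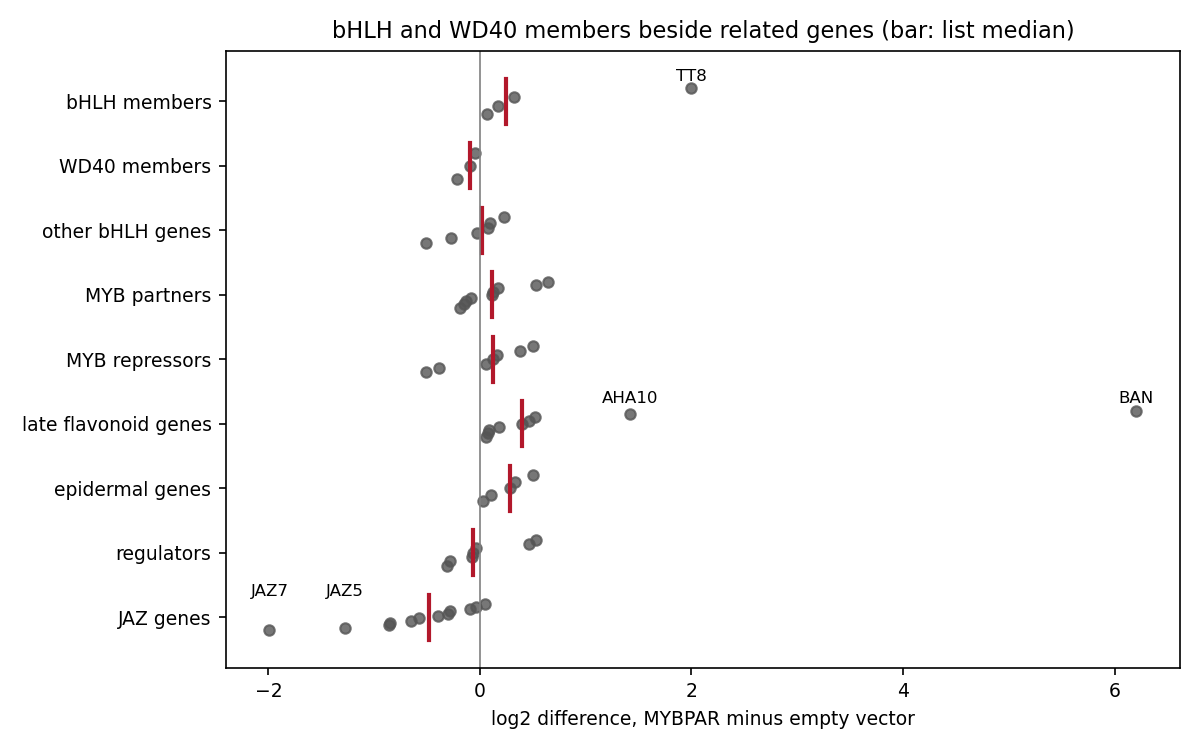
Log2 differences, MYBPAR minus empty vector, of the bHLH and WD40 members and of related genes, 1 point per gene (brightest feature) and a red bar at the median of each list. TT8 at 2.00 stands away from the other bHLH members, BAN at a fitted 6.21, with controls in the low mode, is the 1 called gene, and the JAZ genes lie mostly below 0 with none called.

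The features whose pattern over the 6 arrays was most like that of TT8 were found by Pearson's r among 7262 features of other loci that varied by at least 1 log2 unit. The 5 with the highest r were UMAMIT46 (0.97), AT2G43141 (0.97), AT1G62333 (0.97), AT1G79075 (0.96) and AT2G42860 (0.96). UMAMIT46 is annotated as a member of a transporter family, and AT2G43141 is listed with a small nucleolar RNA synonym. Their log2 differences ran from 0.60 to 2.17, and at least 3 of the 6 values of each lay in the low mode. In total 39 features had an r above 0.9. BAN had rank 14 with an r of 0.95, AHA10 rank 23 with 0.93 and MYB5 rank 39 with 0.90. TT2 had an r of -0.70, but it varied by less than 1 log2 unit with all 6 values in the low mode. These r describe 6 arrays that fall into the 2 groups, which alone brings any gene that differs between the groups close to TT8.

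**Figure D4:**
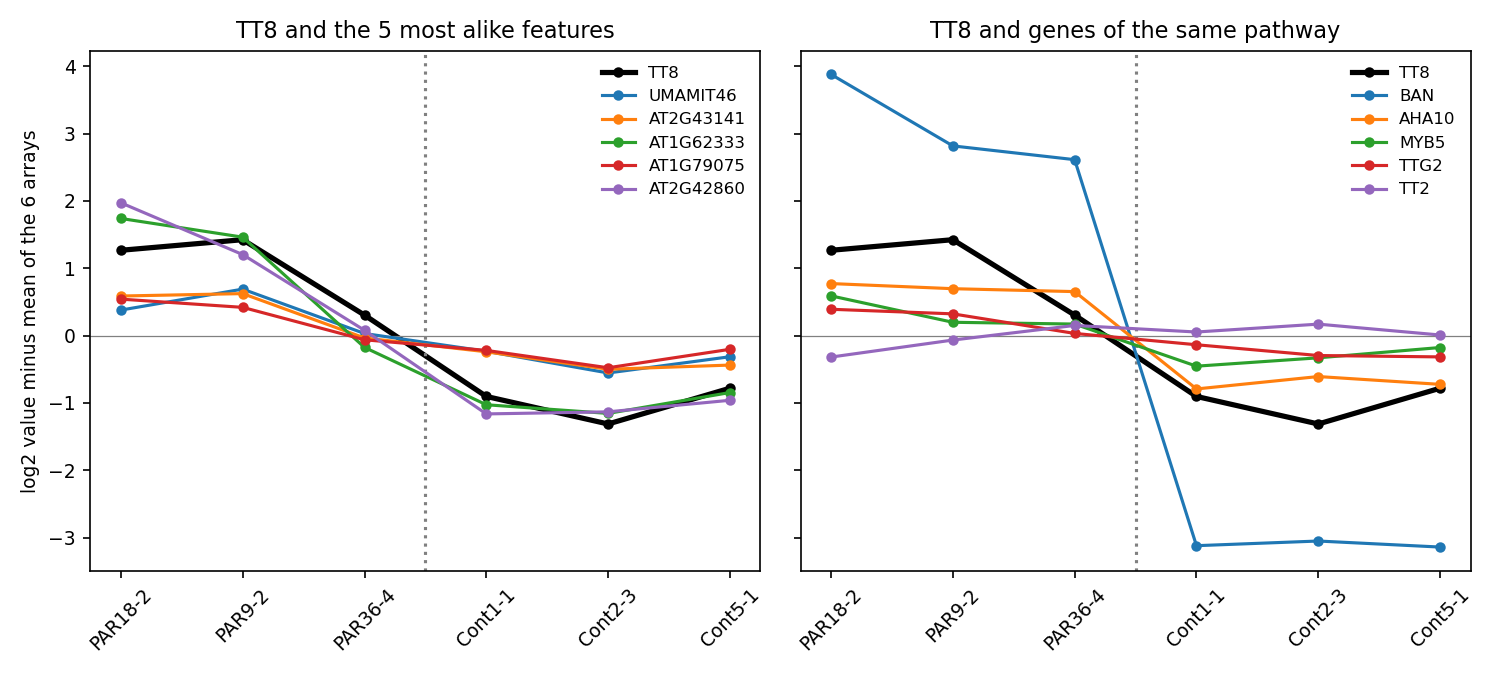
Log2 values minus the mean of the 6 arrays for TT8 (black) and, on the left, the 5 features with the most similar pattern, and, on the right, BAN, AHA10, MYB5, TTG2 and TT2. Lines only join the values of 1 gene; the MYBPAR lines stand left of the dotted line, and PAR36-4 is the lowest of the 3 for TT8, BAN, AHA10, MYB5 and TTG2.

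The arrays also differed in clock and organ markers. The morning genes CCA1, LHY and PRR9 stood at 7.54, 7.53 and 7.19 in PAR9-2 and at 9.83 or more on the other 5 arrays. Clock genes differed between the controls too. LHY had 9.83 in Cont1-1 and 13.04 in Cont5-1, and the evening gene ELF4 had 12.89 and 8.43. LWD1 and LWD2 showed no comparable drop in PAR9-2, where they had 12.60 and 11.75, inside the range of the other MYBPAR lines for LWD2 and just above it for LWD1. None of the 11 clock genes was called. With a score of clock state as a covariate, taken as the average of the morning genes CCA1, LHY and PRR9 less that of the evening genes TOC1, ELF4 and LUX, LWD1 had a difference of -0.20 (SE 0.12) and TT8 of 1.90 (SE 0.36).

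**Figure D5:**
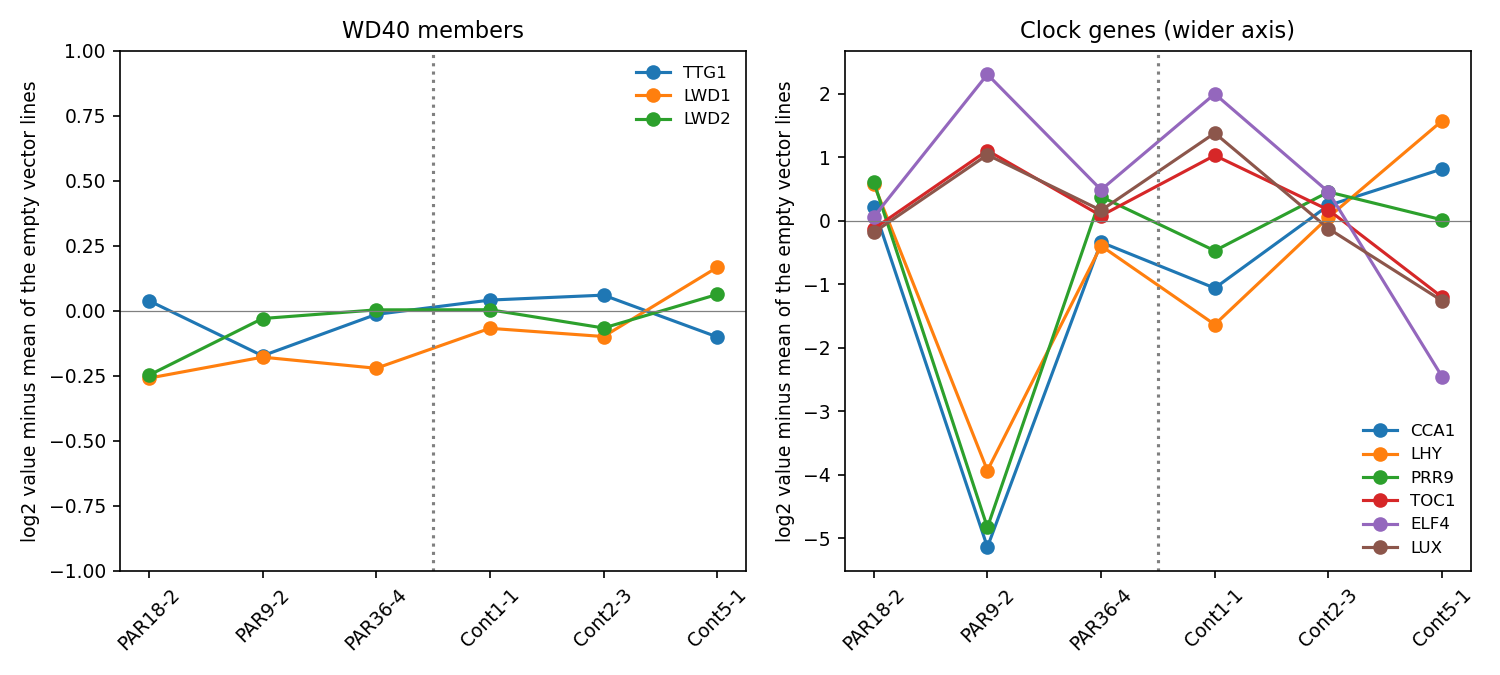
Log2 values minus the mean of the empty vector lines for TTG1, LWD1 and LWD2 (left) and for 6 clock genes (right, on a wider axis), with MYBPAR lines left of the dotted line. CCA1, LHY and PRR9 were lowest in PAR9-2, at 7.54, 7.53 and 7.19, while the brightest feature of each WD40 gene, the one plotted, stayed within 0.3 log2 units of the control mean on every array.

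All 7 flower markers had differences above 0, with a median of 0.73 and none called. The groups overlapped for all but 1 of them, SEP1, which had 0.74 (SE 0.24; limma, unadjusted p = 0.0204, adjusted p = 0.915). The mean log2 level of the 7 markers was 9.48 to 10.34 in the MYBPAR lines and 8.55 to 10.02 in the controls. By line it was 9.48, 10.24 and 10.34 in PAR18-2, PAR9-2 and PAR36-4 and 8.55, 10.02 and 9.34 in Cont1-1, Cont2-3 and Cont5-1. With the flower mean as a covariate the TT8 difference was 2.27 (SE 0.37). Seed coat markers, the tissue where TT8 is best known, had mean levels of 5.20 to 5.81 against 5.18 to 5.46, and TT2, TT1, TT16 and STK were in the low mode on all 6 arrays. The remaining seed coat marker, TT10, had a difference of 0.78 (SE 0.22), with the MYBPAR lines at 8.46, 8.31 and 7.98 and the controls at 7.82, 7.47 and 7.10, and its part in the TT8 result was not tested. Embryo markers had mean levels of 5.33 to 6.47 against 5.35 to 5.83, with 3 of 4 in the low mode on all arrays. Green leaf markers lay between 14.65 and 15.05, apart from LHCB2.1, which had 10.77 in PAR9-2 and 13.42 to 13.64 on the other arrays. Of the root markers 4 of 5 were above the low mode on all 6 arrays.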

How the data were processed

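The authors deposited 1 intensity value per feature and array, on a linear scale, made with RMA per the submitters' processing notes. RMA corrects background, normalizes between arrays by quantiles and summarises probes, which hides any shift that most transcripts share. Neither its version nor the probe annotation is stated in the sources used here. The series table, deposited as log2 values, differed from log2 of the intensities by at most 1.66e-06. The number of probes per feature comes from the files as well, per the file headers. Median intensity was 859 to 887 on the 6 arrays, which carry no counts, so their number limits the precision.

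Log2 intensities were tested with limma 3.58.1 under R 4.3.3 (lmFit, then eBayes without trend or robust settings). The contrast was MYBPAR minus empty vector on all 37118 features, with no filter and Benjamini-Hochberg adjustment over all of them. The model was run on 5 simulated data sets with 200 planted changes each, to check that its mean estimates returned them. The simulated noise was independent between features, so false calls on the real arrays were not checked. Of 32627 loci, 31993 matched the RefSeq table of TAIR10.1, used for names only. A locus with several features entered lists by its brightest feature. No coordinates or sequences are given.

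The members and lists were chosen with earlier results of these data known. Named are all member features and, from each list of related genes, called genes, the 2 largest differences in size and the smallest p. Organ markers are given mostly by list, and other genes were named after their values were seen. By their labels the replicate numbers count separate lines, and no pairing of samples is stated. Alternatives were other normalizations, the series table, other variance models, a filter, a pseudocount of 32, array weights, the replicate block, locus means, 2 covariates and leaving out each line.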

Additional observations from a re-analysis of the deposited data

How the results depend on the processing

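TT8 was higher in the MYBPAR lines under all 18 alternatives and called under none, with log2 differences from 1.73 to 2.34. Without 1 line they ran from 1.79 to 2.34. The series table, the other variance models, the filter and the replicate block leave every difference unchanged. Locus means do so for genes of 1 feature, so agreement in sign under these alternatives was fixed in advance. The count of called members was 0 in all 18, also without any 1 line. With the replicate number as a block the TT8 difference was 2.00 (limma, adjusted p = 0.806), and the number of all features called went from 2 to 0. Deviations of same-numbered lines had r = 0.30, -0.06 and 0.24, and those of other pairs of lines -0.48 to 0.36. With so few lines these r cannot decide whether the numbers pair samples. The count of all features was also 0 with no moderation and with the clock or flower covariate, and without 1 line it was 3 without PAR18-2 and 0 without each of the other 5. TT8 minus the other bHLH genes ran from 1.56 to 2.13 and bHLH minus WD40 genes from 0.68 to 0.89 (0.31 with TT8 left out). Changes of sign occurred for AT5G24520_1 of TTG1 with the flower covariate (0.041) and without PAR36-4 (0.026; -0.49 to 0.026 without 1 line), for AT5G24520_2 without PAR9-2 (0.012; -0.10 to 0.012 without 1 line), for AT5G24520_3 as the locus mean (-0.054; 0.039 to 0.21 without 1 line) and for GL3 without Cont5-1 (-0.063; -0.063 to 0.34 without 1 line). The cause was not tested. LWD1, LWD2, EGL3 and both MYC1 features kept their direction in all 18, though LWD2 ran from -0.14 without PAR36-4 to -0.013 without PAR18-2 and the first MYC1 feature from 0.038 without Cont2-3 to 0.12 without Cont1-1. BAN was called in 9 of 18, with an adjusted p of 0.00141 to 0.914 (limma, or the unmoderated model at the upper end). No scaling moved the median of all features by as much as 0.1.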
